A study of Arabidopsis thaliana with 8 samples.

Results

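The genes described here are 9 loci of the Arabidopsis plastid genome, chosen by their identifiers in a table of ribosome footprint counts. They are the RNA polymerase genes rpoA (ATCG00740), rpoB (ATCG00190), rpoC1 (ATCG00180) and rpoC2 (ATCG00170), the maturase gene matK (ATCG00040), and the open reading frames ycf1 (ATCG01130), ycf2 (ATCG00860), ycf3 (ATCG00360) and ycf4 (ATCG00520). All 9 were found among the 88 plastid-encoded rows and 27416 rows of the table, and all 9 passed the filter on low counts.

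The study profiled ribosome footprints, the stretches of mRNA that a translating ribosome shields from nuclease, in shoots and roots of Arabidopsis thaliana Col seedlings, 4 days after imbibition. The seedlings grew hydroponically in liquid medium with sucrose and were harvested 3 h after lights on. Shoot and root tissue were each extracted in 4 polysome buffers, which gave 4 shoot and 4 root libraries, with 1 library for each tissue and buffer. The concentration of KCl was 50 mM in A, 40 mM in B and D, and 30 mM in C. That of MgCl2 was 25 mM in A, 20 mM in B and D, and 15 mM in C, and Tris was at 200 mM except in D, where it was at 100 mM. All buffers shared the same detergents, DTT, cycloheximide, which stalls cytosolic ribosomes, and DNase I. Nothing in the labels says that the libraries of a tissue came from separate cultures, so p-values measure only the spread between these libraries. With tissue and buffer in the model, that spread is how far the tissue difference varied between buffers. It is not a spread between replicates of the same tissue and buffer. In whole organs, fewer plastids or green cells and fewer footprints per cell cannot be told apart, and neither can more mRNA and more ribosomes per mRNA.

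Plastid genes are transcribed by 2 kinds of RNA polymerase. The plastid-encoded polymerase (PEP) resembles that of bacteria, and rpoA, rpoB, rpoC1 and rpoC2 encode its core. Phage-type polymerases, encoded in the nucleus and imported, transcribe the rpoB operon and other housekeeping genes of the plastid. PEP transcribes mainly photosynthesis genes and, in leaves, is joined by nuclear-encoded associated proteins and sigma factors. The product of matK takes part in the splicing of group II introns. Ycf1 (TIC214) is assigned to the protein translocon of the inner envelope and Ycf2 to an import motor at the same membrane. Ycf3 and Ycf4 assist the assembly of photosystem I. In the RefSeq table of plastid genes rpoC1 lies between rpoC2 and rpoB, ycf3 beside psaA, and ycf4 between psaI and cemA.

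Library totals on coding sequences ran from 3746348 to 4501213 counts in shoot and from 1120218 to 3410266 in root. The 88 plastid rows held 3.78 to 5.43% of shoot counts and 0.0882 to 0.144% of root counts. Behind the 9 genes together lay 2620 to 3984 counts in a shoot library and only 126 to 234 in a root library. The tissue labels were checked with 4 markers each. The summed level of CAB1, RBCS1A, GUN5 and PDF1 was 32565 to 36828 CPM in shoot, against 199 to 294 CPM in root, and that of CASP1, PRP3, EIR1 and PHT1;1 was 65.8 to 146 CPM in shoot, against 1517 to 2028 CPM in root. No marker was at 0 in any library. CPM here is a read count scaled by the library total of tested genes and a TMM factor. Gene length does not enter it, so levels of different genes are not set against each other.

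All 9 genes carried more footprints in shoot than in root. In each of them the 4 shoot libraries lay above the 4 root libraries, and all 9 passed the test (edgeR quasi-likelihood test with tissue and buffer as terms, Benjamini-Hochberg adjusted p under 0.05 over 15664 genes). Of all genes tested 22.6% were called higher in shoot and 17.8% lower, 40.3% in either direction, and 25.3% had the same separation of the libraries. Among the 76 other plastid rows tested, 98.7% were called higher in shoot, so the direction sets the 9 genes apart from the nuclear genome and not from the rest of the plastid genome. The exception among those rows, named after its value was seen, was ATCG00500, with a log2 fold change of -0.29 ± 0.20 (SE, adjusted p = 0.283). Fold changes below are log2 values of shoot minus root with an approximate standard error.

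**Figure D1:**
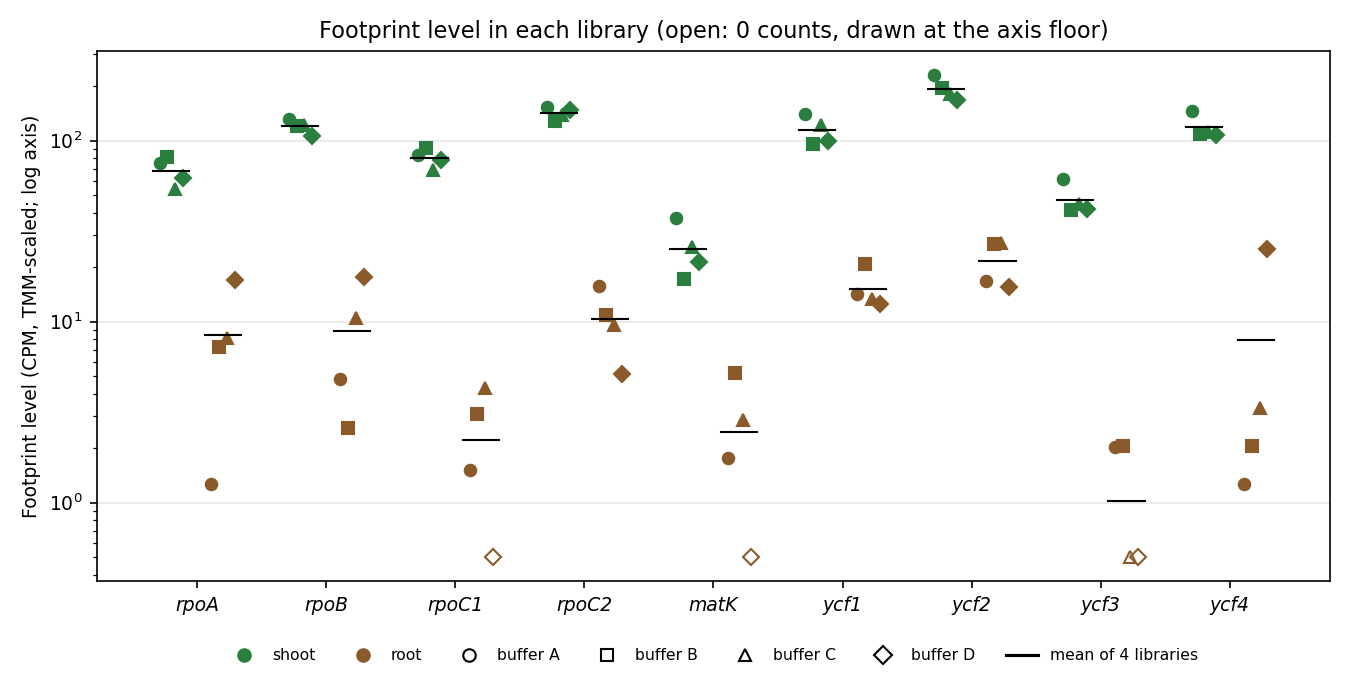
Footprint level of the 9 genes in each of the 8 libraries, in CPM on a log axis, with shoot in green to the left of root in brown, a marker shape for each buffer and a line for the mean of 4 libraries. Every shoot library lies above every root library of the same gene, and the open markers at the axis floor are root libraries of rpoC1, matK and ycf3 without counts.

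Footprint levels of the polymerase genes varied less across the shoot libraries than across the root libraries. The coefficient of variation was 7.64 to 18.2% in shoot and 42.0 to 84.0% in root. A library held 172 to 576 counts of such a gene in shoot and 0 to 62 in root. The part of counting depth in this contrast was not tested. The gene rpoB, for the beta subunit, stood at 131, 120, 122 and 106 CPM in shoot buffers A, B, C and D and at 4.80, 2.59, 10.5 and 17.7 CPM in root buffers A, B, C and D. The shoot values span a narrow range, while the root values, which rest on 19, 5, 22 and 24 counts, differ among themselves and stay below every shoot value. Its log2 fold change was 3.95 ± 0.40 (adjusted p = 1.75e-05), a 15.5-fold higher level in shoot.

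The gene rpoC2, for the subunit that plants and cyanobacteria split off from the bacterial beta prime subunit, had 153, 128, 139 and 148 CPM in shoot buffers A to D, against 15.7, 10.9, 9.54 and 5.15 CPM in root buffers A to D. It had the most root counts of the polymerase genes, 110 over the 4 libraries. The log2 fold change was 3.75 ± 0.26 (adjusted p = 8.39e-07).

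The other part of that subunit, encoded by rpoC1, had 83.3, 91.2, 68.6 and 77.7 CPM in shoot buffers A to D. In root it had 1.52, 3.10, 4.29 and 0 CPM in buffers A to D, from 6, 6, 9 and 0 counts. A count of 0 in root buffer D allows a level of up to 2.21 CPM at that depth (3 counts of the library). Its log2 fold change of 5.15 ± 0.45 (adjusted p = 6.50e-06) was the largest of the 4 polymerase genes and corresponds to a 35.5-fold higher level in shoot.

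The gene rpoA, for the alpha subunit that begins polymerase assembly in bacteria, had 75.4, 81.5, 53.9 and 62.5 CPM in shoot buffers A to D, against 1.26, 7.24, 8.11 and 16.9 CPM in root buffers A to D. The lowest and highest root values are those of buffers A and D, and the highest root value stays below the lowest shoot value. Its log2 fold change was 3.31 ± 0.51 (adjusted p = 4.12e-04), the smallest of the polymerase genes. Without root or shoot buffer A it was 2.68 and 2.69. With buffer in the model, either omission takes buffer A out of the tissue effect. Here and below, such paired values are therefore not separate checks.

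The 3 adjacent genes of the rpoB operon kept a similar ratio of counts in every shoot library. Counts of rpoC1 were 0.545, 0.711, 0.495 and 0.526 times those of rpoC2 in shoot buffers A to D and 0.0968, 0.286, 0.450 and 0 times in root buffers A to D. Every root ratio was below every shoot ratio, on 0 to 9 counts of rpoC1 per root library. Against rpoB, counts of rpoC1 were 0.562 to 0.760 times in shoot and 0.316, 1.20, 0.409 and 0 times in root buffers A to D, so here root buffer B lay above every shoot library. Counts of rpoB were 0.717 to 0.936 times those of rpoC2 in shoot and 0.238 to 3.43 times in root, where the ratio was lowest in buffer B and highest in buffer D. The differences between these ratios were not tested.

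Within single buffers the ratio of the shoot to the root level of rpoA was 59.7, 11.3, 6.65 and 3.69 in buffers A to D, and that of rpoC2 was 9.76, 11.8, 14.5 and 28.7. For rpoA the ratio was highest in buffer A and lowest in D, and for rpoC2 the reverse held. With 1 library for each tissue and buffer these ratios have no replicate check, and the root counts behind them run from 0 to 62.

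The maturase gene matK had the fewest shoot counts of the 9 genes, 349 over 4 libraries, and 23 in root. Its level was 37.1, 17.1, 25.7 and 21.2 CPM in shoot buffers A to D, against 1.77, 5.17, 2.86 and 0 CPM in root buffers A to D. The root library of buffer D had no count, which allows up to 2.21 CPM. The log2 fold change was 3.44 ± 0.66 (adjusted p = 1.64e-03), with the largest standard error of the 9. Without root or shoot buffer B it was 4.17 and 4.20.

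The open reading frames ycf1 and ycf2, both tied to protein import into plastids, had the highest root counts and the smallest fitted fold changes of the 9 genes. The gene ycf2 stood at 231, 195, 180 and 167 CPM in shoot buffers A to D and at 16.7, 26.9, 27.2 and 15.5 CPM in root buffers A to D, on 196 root counts in all. Its log2 fold change was 3.20 ± 0.22 (adjusted p = 8.25e-07), a 9.16-fold higher level in shoot. The gene ycf1 stood at 140, 96.3, 123 and 99.3 CPM in shoot buffers A to D and at 14.1, 20.7, 13.4 and 12.5 CPM in root buffers A to D, on 141 root counts. Its log2 fold change of 2.93 ± 0.24 (adjusted p = 4.16e-06) was the smallest of the 9, a 7.61-fold higher level in shoot. Root levels of both genes varied less between libraries than those of the other members, with a coefficient of variation of 24.6% for ycf1 and 29.5% for ycf2. As both also had the most root counts, the part of counting depth in this was not tested.

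RefSeq lists ycf1 and ycf2 at 2 plastid loci each. The rows ATCG01280 and ATCG01000 were taken here as the second locus of ycf2 and of ycf1, a pairing that the deposited table does not state. ATCG01280 had 879, 697, 603 and 505 counts in shoot buffers A to D and 63, 44, 37 and 26 counts in root buffers A to D. The row of ycf2 had 869, 686, 575 and 528 counts in shoot and 66, 52, 57 and 21 counts in root, so that the ratio of the pair was 0.954 to 1.05 in shoot and 0.808 to 1.54 in root. ATCG01000 had 91 to 133 counts in a shoot library and 3 to 15 in a root library, which is 0.216 to 0.393 times ycf1 in shoot and 0.075 to 0.268 times in root. How reads that match both loci were counted is not given in the sources used here, so the level of either row alone is uncertain. With the second loci added, the log2 fold change was 3.28 ± 0.17 for ycf2 and 3.07 ± 0.20 for ycf1.

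The photosystem I assembly genes ycf3 and ycf4 were both higher in shoot and had only 12 and 50 root counts in all. The gene ycf3 had 61.3, 41.3, 44.5 and 41.9 CPM in shoot buffers A to D, against 2.02, 2.07, 0 and 0 CPM in root buffers A to D, from 8, 4, 0 and 0 counts. The counts of 0 allow up to 1.43 CPM in root buffer C and 2.21 CPM in root buffer D. Its log2 fold change of 5.40 ± 0.58 (adjusted p = 2.60e-05) was the largest of the 9, a 42.3-fold higher level in shoot.

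The gene ycf4 had 145, 109, 112 and 107 CPM in shoot buffers A to D, against 1.26, 2.07, 3.34 and 25.0 CPM in root buffers A to D. Root buffer D stood apart with 34 counts, against 5, 4 and 7 in buffers A, B and C, although it was the shallowest library. In the same library plastid counts made up 0.144% of the total, against 0.0882 to 0.0969% in the other root libraries, and the shoot markers summed to 294 CPM, against 199 to 270 CPM. Their part in the value of ycf4 was not tested. The log2 fold change was 4.52 ± 0.61 (adjusted p = 1.57e-04) with all libraries. Without root or shoot buffer D it was 5.89 and 5.91, and without root or shoot buffer A it was 3.85 and 3.90. Either omission takes the same buffer out of the tissue effect, so these values do not tell the root library from the shoot library.

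In order of fold change the 9 genes were ycf3, rpoC1, ycf4, rpoB, rpoC2, matK, rpoA, ycf2 and ycf1. Each neighbouring pair in this order differed by 0.11 to 0.63 on the log2 scale, less than their combined standard error, so neighbours cannot be ranked. The ends of the order, ycf3 and ycf1, are 42.3-fold and 7.61-fold, and that difference was not tested. Against the 76 other plastid rows, whose median log2 fold change was 5.38 with quartiles of 4.55 and 6.22, the median of the 9 was 3.75. The median of all genes tested was 0.12. Root held 2.16 to 13.2% of the shoot level in the 9 genes, a median of 2.61% in the other plastid rows, and 0.464 to 1.78% in the 4 shoot markers. Whether shoot material or plastid number had a part in these root levels was not tested.

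**Figure D2:**
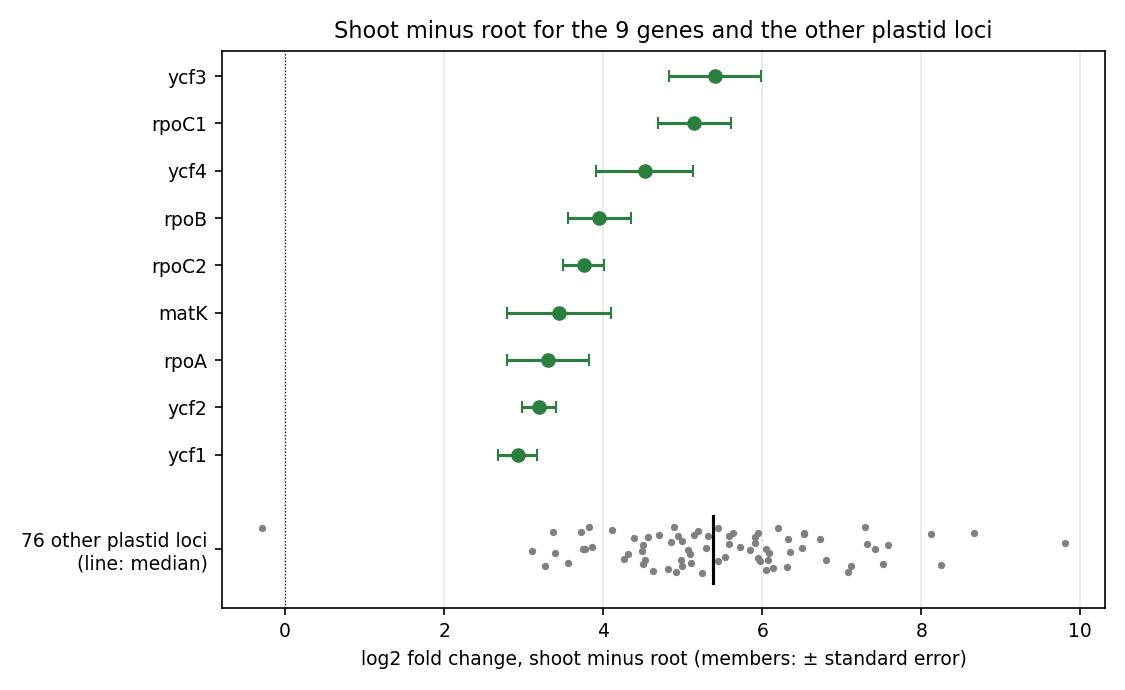
Log2 fold change of shoot minus root for the 9 genes, with bars of 1 standard error, above the 76 other plastid loci as grey points with their median as a line. The 9 genes lie between 2.93 and 5.40, with 8 of them below 5.38, the median of the other loci.

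The next comparison asked whether each gene took a different part of the plastid footprints in the 2 tissues. Here a library's size was its total over the 88 plastid rows, and 85 rows were tested with the same model and adjusted over those 85. The 9 genes together made up 1.63, 1.62, 1.94 and 1.78% of plastid counts in shoot buffers A to D, against 7.08, 9.88, 10.4 and 7.83% in root buffers A to D. This summed share was thus higher in every root library than in any shoot library. How many of the other plastid rows separate in this way was not counted, so it is not read as a trait of the 9. Of the 9 genes, 5 had a lower share in shoot than in root (ycf1, ycf2, rpoA, rpoC2 and rpoB) and 0 had a higher one. Over all 85 rows 10.6% were called lower in shoot and 1.18% higher. The 4 genes that were not called, rpoC1, matK, ycf3 and ycf4, had fitted values of -0.57, -2.31, -0.12 and -1.003.

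Of the plastid footprints, ycf2 took 0.369 ± 0.0226% in shoot and 2.55 ± 1.08% in root (mean ± SD, n = 4 libraries each), a log2 difference of -2.69 ± 0.40 (SE, adjusted p = 7.94e-07). The share of ycf1 was 0.220 ± 0.0401% in shoot and 1.76 ± 0.605% in root (-2.96 ± 0.48, adjusted p = 4.18e-06). Both stayed called under every alternative run for this comparison. The polymerase genes rpoC2 (-2.07 ± 0.56, adjusted p = 7.04e-03), rpoA (-2.48 ± 0.72, adjusted p = 0.0120) and rpoB (-1.83 ± 0.62, adjusted p = 0.0447) did not. Their shares were 0.274 ± 0.0445, 0.130 ± 0.0151 and 0.230 ± 0.0304% in shoot, against 1.22 ± 0.595, 0.884 ± 0.538 and 0.942 ± 0.584% in root, and the wide root spread is visible in the plot of shares.

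The plastid total is weighted by a few loci. The row ATCG00490 alone held 41.9 to 45.3% of plastid counts in shoot and 14.2 to 20.6% in root, and it was the 1 row called higher in shoot (log2 difference 1.40 ± 0.08, adjusted p = 6.17e-19). With TMM factors over the plastid rows, or with the total taken without the 2 highest rows, ycf1 and ycf2 remained the only 2 of the 9 genes called. Under the TMM factors rpoA, rpoC2 and rpoB had values of -1.79, -1.39 and -1.16 (adjusted p = 0.0913, 0.103 and 0.205), so for the polymerase genes the call rests on the plastid total. It also changed when a root library, and with it its buffer, was left out of the tissue effect. Of the 9 genes 3 were called without root buffer A or D, and 2 without root buffer C. Without a shoot library only 41 rows and 5 of the 9 genes (ycf1, ycf2, rpoA, rpoC2 and rpoB) passed the filter. There rpoA, rpoB, rpoC2 and ycf1 passed through their root libraries, where their share was high. The calls made without a shoot library are therefore no check and are not read here. The rows ATCG00500 and ATCG00670, named like ATCG00490 after their values were seen, were also lower in shoot, by log2 differences of -6.17 ± 0.22 and -2.78 ± 0.27. So were ATCG01280, taken here as the second locus of ycf2 (-2.51 ± 0.41), and ATCG00750 (-2.03 ± 0.55). The lower share in shoot was thus not limited to the 9 genes.

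**Figure D3:**
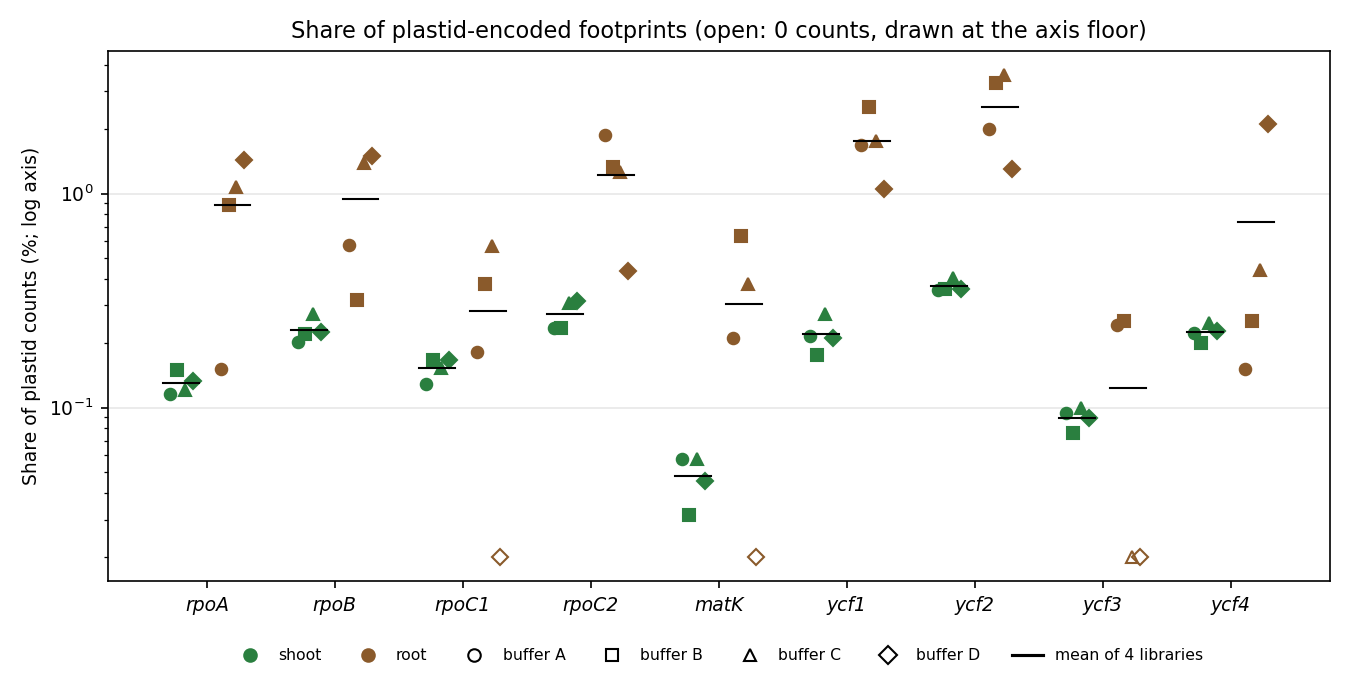
Share of each gene in the plastid counts of a library, in percent on a log axis, with shoot in green to the left of root in brown, a marker shape for each buffer and a line for the mean of 4 libraries. For rpoA, rpoB, rpoC2, ycf1 and ycf2 every root library lies above every shoot library, and for rpoC1, matK, ycf3 and ycf4 the tissues overlap (open markers: no counts). How many of the other plastid rows separate in this way was not counted, so the separation is not read as a trait of these genes.

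Patterns across the 8 libraries were compared by the root mean square difference of log2 levels, each gene centred on its own mean. Among the other plastid rows the closest to ycf2 was ATCG01280, at 0.24, the row taken here as its second locus. How reads that match both loci were counted is not given, so this likeness is not a separate result. ATCG01280 was also closest to ycf1, at 0.28. The closest to rpoB was ATCG00750, at 0.21, to rpoC1 ATCG01310, at 0.28, to rpoC2 ATCG01000, at 0.45, and to rpoA ATCG01230, at 0.50. The closest to matK was ATCG00905, at 0.36, to ycf4 ATCG01090, at 0.35, and to ycf3 ATCG00150, at 0.53. The closest of the 9 genes to ycf1 was ycf2, at 0.29, and the reverse held as well. These are descriptions over 8 libraries that share the contrast of shoot and root.

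The extraction buffer was the factor the series varied on purpose, and none of the 9 genes was called for it. For any of the 4 buffers 0 of 9 were called, where 0.0575% of all genes were. An unadjusted p under 0.05 was found for 0 of 9, and for 121 of all 15664 genes tested. For buffer A minus C, the highest against the lowest salt, 0 of 9 were called against 0% of all genes. Here 0 of 9, and 253 of all genes, had an unadjusted p under 0.05. The fitted log2 values of the 9 ran from -0.30 to 0.85. For buffer D minus B, the lower against the higher Tris, 0 of 9 were called against 0.0447% of all genes. Again 0 of 9, and 312 of all genes, had an unadjusted p under 0.05. Values of the 9 ran from -0.87 to 1.37. The median standard error of the 9 genes was 0.56 and 0.57 in these contrasts. The value farthest from 0, 1.37 for ycf4 in D minus B, had a standard error of 0.83 and was not called. KCl kept a fixed ratio to MgCl2 in all buffers, so a trend with MgCl2 cannot be told apart from one with KCl. In the test of whether the MgCl2 trend differed between shoot and root, 0 of 9 were called against 0% of all genes by edgeR. Of the 9, 1, ycf2, had an unadjusted p under 0.05, as did 618 of all genes. DESeq2 likewise called 0 of 9 in each of these 4 tests.

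Within shoot, where counts were high, buffer A gave the highest level for 7 of the 9 genes (rpoB, rpoC2, matK, ycf1, ycf2, ycf3 and ycf4) and buffer B for rpoA and rpoC1. The same held for 60 of the 76 other plastid rows, or 78.9%, whereas 25.7% of all genes tested were highest in shoot buffer A. The plastid rows as a whole made up 5.43% of counts in shoot buffer A, against 4.49, 3.78 and 3.94% in shoot buffers B, C and D. With 1 shoot library per buffer this has no replicate check. In root the highest level fell in buffer A for 1 gene, B for 3, C for 2 and D for 3.

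Nuclear genes for partners of the 9 plastid proteins, or for plastid splicing and photosystem I assembly, were also higher in shoot in most cases. Of 12 PEP-associated proteins, 12 were called higher in shoot, where 22.6% of all genes tested were, which is also the background of the other lists. Their median log2 fold change was 3.69, with a range of 3.07 to 4.70, beside 3.75 for the 9 plastid genes. MURE, a homologue of a bacterial cell wall enzyme, had 142 ± 11.3 CPM in shoot, against 14.2 ± 2.24 CPM in root (SD, n = 4 each; log2 fold change 3.30 ± 0.21). The plastid nucleoid proteins PTAC2 and PTAC3 had log2 fold changes of 4.11 ± 0.33 and 4.70 ± 0.33, PTAC12, which also acts in phytochrome signalling, 3.60 ± 0.50, PTAC14 4.28 ± 0.44 and the iron superoxide dismutase FSD3 3.59 ± 0.44. PTAC3 was at 5.34 and 5.36 without root or shoot buffer A, PTAC12 at 4.28 and 4.30 without root or shoot buffer D, and FSD3 at 4.17 without shoot buffer B.

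Sigma factors direct PEP to its promoters. Of 6 in the list, 5 were higher in shoot, 0 were lower and 1 was not called, with a median of 4.01, also with SIG4 at its bound. SIG2 had 116 ± 8.12 CPM in shoot, against 3.40 ± 1.90 CPM in root (log2 fold change 5.12 ± 0.31), and SIGF (SIG6) stood at 5.03 ± 0.62, or 5.77 and 5.80 without root or shoot buffer A and 6.51 with DESeq2. SIGA (SIG1) and SIGC (SIG3) differed less, at 2.98 ± 0.26 and 2.55 ± 0.54. SIG4 had no root count, which makes it at least 42.0-fold higher in shoot, taking 3 counts over the 4 root libraries. SIGE (SIG5), a sigma factor that responds to light and stress, had 18.4 ± 5.58 CPM in shoot, against 24.1 ± 13.4 CPM in root (-0.30 ± 0.44, adjusted p = 0.633).

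Among the 3 phage-type RNA polymerases, only the plastid enzyme SCA3 (RPOTp) was called, with 59.6 ± 12.4 CPM in shoot, against 7.97 ± 6.09 CPM in root (log2 fold change 2.92 ± 0.55, adjusted p = 1.51e-03). The mitochondrial enzyme MGP3 (RPOTm) had 25.4 ± 8.09 CPM in shoot, against 27.1 ± 4.88 CPM in root (-0.14 ± 0.30, adjusted p = 0.756). AT5G15700 (RPOTmp), assigned to both organelles, had 4.49 ± 0.974 CPM in shoot, against 6.89 ± 4.30 CPM in root (-0.43 ± 0.72, adjusted p = 0.681). Whether these 3 fold changes differ from each other was not tested.

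Of 5 splicing factors for plastid group II introns, 5 were higher in shoot, with a median of 4.38. CAF1, CAF2, CFM2 and WTF1 had log2 fold changes of 3.34 ± 0.29, 4.69 ± 0.35, 4.38 ± 0.34 and 4.85 ± 0.60. WTF1 was at 5.88 and 5.94 without root or shoot buffer C and at 6.22 with DESeq2. The call of CRS1 (3.87 ± 1.39, adjusted p = 0.0478) was lost with library totals alone, without the buffer term, and without the library of buffer A, B or C from either tissue. Over the alternatives it lay between 2.21 without the buffer term and 6.71 without root buffer D, with adjusted p up to 0.213 (edgeR).

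The lists of partners of Ycf1 and Ycf2 had medians of 2.83 and 2.40, beside 3.69 for the PEP-associated genes. Of 3 TIC partners, 2 were higher in shoot, emb1211 (TIC100) at 2.83 ± 0.18 and AT5G01590 (TIC56) at 2.49 ± 0.25, and Tic20-I was not called by edgeR (3.07 ± 1.22, adjusted p = 0.0699). Tic20-I was called by DESeq2 (3.61, adjusted p = 0.00866), without a filter, without the buffer term, and without root or shoot buffer C (4.56 and 4.59). Without root or shoot buffer B it was at 2.18 and 2.29. Of 6 partners in the Ycf2 import motor, 6 were higher in shoot, with a median of 2.40. FtsHi1 stood at 3.04 ± 0.50, EMB2083 (FtsHi2) at 2.82 ± 0.35, EMB3144 (FtsHi4) at 2.55 ± 0.40, emb2458 (FtsHi5) at 2.21 ± 0.25 and FTSH12 at 2.26 ± 0.29. The plastid malate dehydrogenase MDH had 375 ± 27.7 CPM in shoot, against 181 ± 17.2 CPM in root (1.06 ± 0.12). The difference in size between these groups was not tested.

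Of 6 nuclear genes for photosystem I assembly, the process served by Ycf3 and Ycf4, 6 were higher in shoot, with a median of 5.07 and a range of 3.41 to 6.76. CEST (Y3IP1), a partner of Ycf3, had 84.9 ± 9.20 CPM in shoot, against 3.44 ± 1.78 CPM in root (log2 fold change 4.67 ± 0.33), beside 5.40 for ycf3 and 4.52 for ycf4. AT1G22700 (PYG7) stood at 3.41 ± 0.31, PPD1 at 5.29 ± 0.52, EDA3 (PSA2) at 6.76 ± 0.60, PDE329 (PSA3) at 6.23 ± 0.62 and HCF101 at 4.85 ± 0.39. Without root or shoot buffer C, PPD1 was at 6.25 and 6.28 and EDA3 at 8.44 in both cases, and without root or shoot buffer B PDE329 was at 7.56 and 7.55. Without root or shoot buffer A, EDA3 was at 6.08 and 6.12 and PDE329 at 5.56 and 5.60. With library totals in place of TMM factors the median of all genes shifted by -0.49, to -0.38, and the 9 plastid genes and these lists kept their direction, with the call of CRS1 as the exception among those made.

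**Figure D4:**
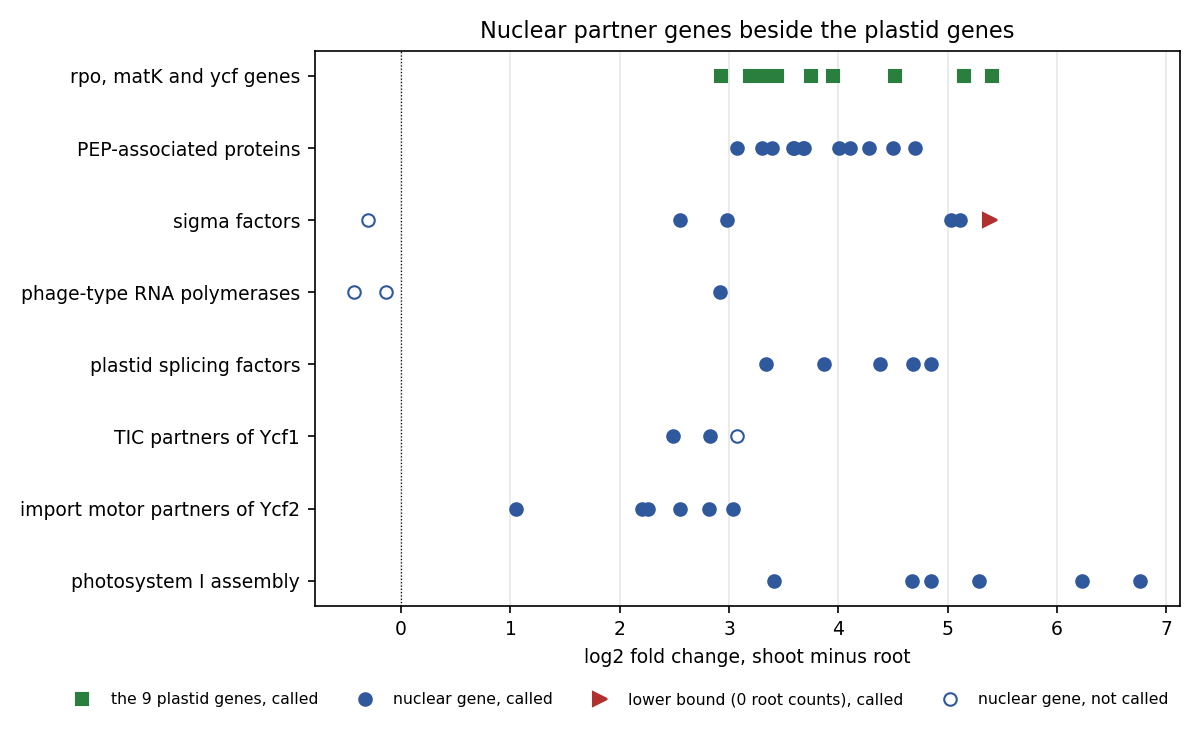
Log2 fold change of shoot minus root for the 9 plastid genes (squares) and for nuclear genes in 7 lists (circles, filled where called), with SIG4 drawn as a triangle at its lower bound. All 12 PEP-associated genes lie between 3.07 and 4.70, and 1 sigma factor and 2 phage-type polymerases lie just below 0.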

How the data were processed

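The 8 libraries were assigned tissue and buffer from their titles. The authors deposited raw counts of footprint reads on coding sequences per gene, whole numbers without normalization. Per the submitters' processing notes, which assign no roles, the tools were Bowtie2 and STAR 2.5.1b and the genome was TAIR10. For the counting program, length filter and multiply matching reads, the method is not given in the sources used here. Counts were analysed in R 4.3.3 with edgeR 4.0.16: filterByExpr by tissue (minimum count 10, minimum total 15), TMM, and a quasi-likelihood F test on tissue plus buffer, which left 3 residual degrees of freedom. A model with MgCl2, Tris and tissue by MgCl2 tested the salt trend. Standard errors are the absolute log2 fold change divided by the square root of F. The plastid comparison used plastid totals and no TMM. Library precision is limited by depth, and floors of 3 counts cover counting error only. Alternatives were library totals, DESeq2 1.42.0, no filter, no buffer term, summed repeat loci and leaving out each library. Within plastid counts DESeq2, library totals and summed repeat loci were not run. Added there were TMM factors over plastid rows and the total without the 2 highest rows. Leaving out the root or the shoot library of a buffer takes the same buffer out of the tissue effect. Libraries of the same tissue differed by more than sampling noise. The fits were tested on simulated data. Gene names of the 49 nuclear list genes came from RefSeq (TAIR10.1), which was used for names and gene order only, so levels per length were not computed. The 9 genes are named as in the rule that chose them. The genes, lists and tests were chosen with earlier results of these data known. Named genes are the 9, the second repeat loci, the plastid row closest to each, and up to 6 of the highest genes of each list.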

Additional observations from a re-analysis of the deposited data

Results flagged for a closer look

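In groups of 4 libraries, a library that stood far from the others was found 3 times among 22 groups. Chance flags about 1 group in 20 if groups are independent, but these share libraries, so no excess over chance is read from the number. The level of ycf4 in root buffer D, 25.0 CPM, stood far above the other 3 root libraries. In shoot buffer A the levels of ycf4, 145 CPM, and of ycf3, 61.3 CPM, stood above the other 3 shoot libraries. Shoot buffer A was also the highest shoot library for 60 of the 76 other plastid rows tested.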

How the results depend on the processing

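All 9 genes stayed called and higher in shoot under every alternative run for shoot minus root, 13 for each gene. Among these, leaving out the root and the shoot library of the same buffer are not separate checks. Within plastid counts the number called of the 9 was 5, but 2 with TMM factors over plastid rows and 2 without the 2 highest rows. With a root library left out it was 2 to 4. It was 6 with no replicate block, where matK was called too (-2.62, adjusted p = 0.0144, edgeR). The count over the rows tested was 10 of 85, and 6 to 16 with a library left out (6 of 85 without root buffer C, 16 of 41 without shoot buffer D). Without the buffer term, which is the block, it was 18. In that comparison rpoC1 changed sign to 0.0910 with TMM and 0.0908 without the 2 highest rows, and ycf3 to 0.49 and 0.53. With a root library left out ycf3, untested without a shoot library, ran between -0.76 and 0.70 (0.63 without root buffer A, 0.70 without root buffer B). SIGE ran between -0.81 and 0.0538, above 0 without root or shoot buffer C, and MGP3 between -0.33 and 0.0743, above 0 without root or shoot buffer A. None of these sign changes concerned a called value. Over all genes, any buffer called 9, or 14 with library totals, 32 with DESeq2, 23 without a filter and 0 to 13 with a library left out (0 without root buffer B, C or D or shoot buffer B, 2 without root buffer A or shoot buffer C). Buffer D minus B called 7, or 18 with DESeq2, 15 without a filter and 0 to 17 with a library left out (17 without shoot buffer D, 0 or 2 without the same libraries as above). The salt trend by tissue called 0, or 2 without a filter and 0 to 7 with a library left out (7 without shoot buffer C). The cause of these changes was not tested. Without the block of buffer, shoot minus root called 7019 genes, against 6315 with it. Deviations of same-buffer libraries of shoot and root had correlations of -0.00417 to 0.01999, beside -0.0301 to 0.0144 for different buffers. All were close to 0, although those of buffers A, C and D lay above every different-buffer value. Root depth, 12 to 196 counts per gene over 4 libraries, limits every root value.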
